A study of Mus musculus with 6 samples.

Results

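The expression of 8 genes was followed in the mouse mesonephros. Podxl, Cited1, Aqp1 and Lrp2 were grouped as genes of renal and mesonephric tubules, with Podxl known from podocytes and Cited1 from tubule progenitors. Upk3b, Lrrn4, Wt1 and Msln are known as markers of the coelomic epithelium and mesothelium. The genes were chosen by name, with earlier results of these data known. All 8 were among the 14366 genes with values, and all 8 passed the filter on low values. The tissue was mesonephros, with its tubule region, of male embryos at embryonic day 16.5. There were 3 Gata2cKO samples (Osr2Cre+;Gata2-flox/flox) and 3 control samples (Osr2Cre+;Gata2-flox/+), so Osr2-Cre, a recombinase driven in mesenchyme, and at least 1 floxed Gata2 allele were present in both groups. The labels leave unstated whether each sample came from its own embryo, and p-values therefore measure a spread between samples that may be technical.

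The coelomic epithelium lines the body cavity and covers the urogenital ridge. Part of it remains as mesothelium, a flat epithelium with tight junctions and surface glycoproteins, and Wt1 is needed for its development. Mesonephric tubules form beside the Wolffian duct, and in males some persist as efferent ducts, which join the testis to the epididymis and take up water and protein with channels and receptors shared with the proximal tubule of the kidney.

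Values were TPM, which corrects for gene length and library total and keeps no read depth, so depth is unknown. Gata2, the targeted gene, had 431, 529.8 and 416 TPM in Gata2cKO replicates 1, 2 and 3, against 384, 464 and 546 TPM in control replicates 1, 2 and 3, and the groups overlapped. A value over the whole gene cannot show loss of its floxed exons and so does not check the labels. Osr2, a transcription factor gene of urogenital mesenchyme for which the Cre is named, had 126, 136 and 118 TPM in Gata2cKO, against 204, 267 and 312 TPM in control, and it fell in Gata2cKO without overlap (log2 change -1.02 with an SE of 0.15, limma adjusted p = 0.0136). The call was lost without Gata2cKO replicate 1 or Gata2cKO replicate 3 (limma adjusted p up to 0.0605). Osr2 was named after its values were seen, and its part in the results was not tested. Mitochondrially encoded transcripts made up 13.2% to 15.2% of the TPM in Gata2cKO libraries and 14.2% to 21.9% in control libraries, highest in control replicate 1. In limma, a linear model that shares variance estimates across genes, 919 of 12300 tested genes (7.47%) had an adjusted p under 0.05, of which 705 (5.73% of those tested) were higher and 214 (1.74%) lower in Gata2cKO. The higher genes were 76.7% of those called, against 55.8% with median-of-ratios scaling and 60.7% without mitochondrially encoded genes in the total.

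Of the 8 genes, 6 rose in Gata2cKO mesonephroi and 0 fell. Cited1 and Lrrn4 had the largest ratios of mean TPM, 2.26 and 2.09, and Lrp2, Upk3b, Podxl and Aqp1 followed with 1.79, 1.69, 1.68 and 1.57. Msln was higher in each Gata2cKO library than in any control without passing the test, and the groups overlapped for Wt1. The count of 6 stands beside 5.73% of all tested genes called higher, as does each count of list genes that rose below. Counts of list genes that fell stand beside 1.74%. In 7 of the 8 genes all 3 Gata2cKO values lay above all 3 control values, as in 23.4% of all tested genes, and in 0 of the 8 they lay below, as in 10.5%. The median log2 fold change was 0.68 over the 8 genes and 0.052 over all tested genes. The number that rose was 6 without control replicate 1, 5 without control replicate 2 or 3, 4 without Gata2cKO replicate 1 or 2 and 3 without Gata2cKO replicate 3.

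**Figure D1:**
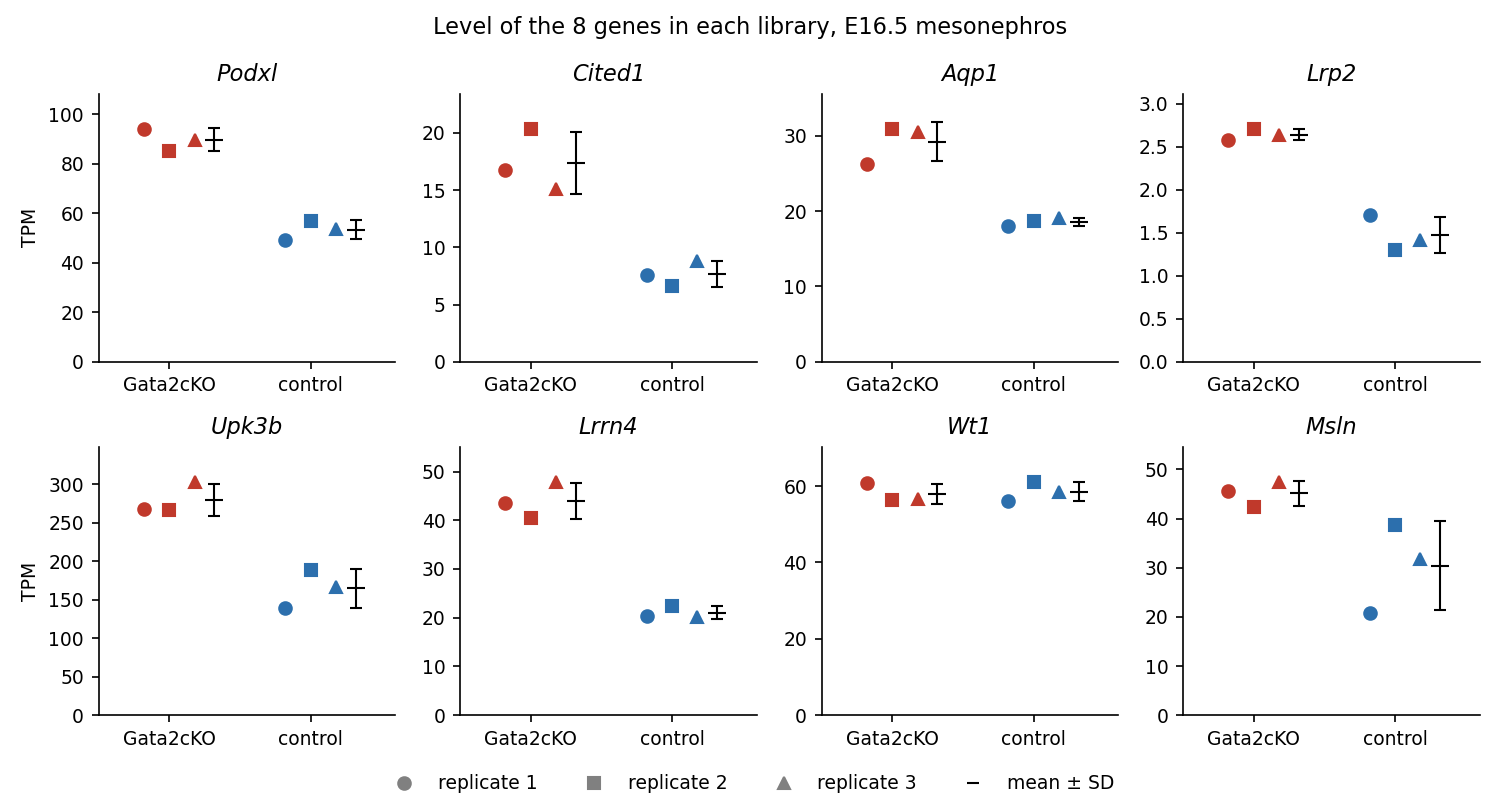
TPM (vertical axis, starting at 0) of the 8 genes in the 3 Gata2cKO and the 3 control libraries, with the mean and SD of each group. The groups are apart for 7 genes and overlap for Wt1, and the Msln controls spread widely, between 20.7 and 38.7 TPM.

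Lrrn4 encodes a leucine-rich repeat membrane protein and marks mesothelium in the mouse (chromosome 2, 132868305 to 132880891, minus strand, GRCm38). It had 43.6, 40.6 and 47.9 TPM in Gata2cKO replicates 1, 2 and 3, against 20.4, 22.5 and 20.2 TPM in control replicates 1, 2 and 3. Every Gata2cKO library was far above every control. The means were 44.01 ± 3.69 TPM in Gata2cKO and 21.04 ± 1.27 TPM in control (SD, n = 3 each; log2 change 1.03 with an SE of 0.091, limma adjusted p = 0.00340). Lrrn4 ranked 17 of 12300 genes by p-value and was called in all 6 fits that left out 1 library.

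Upk3b, a uroplakin gene that marks mesothelium (chromosome 5, 136038496 to 136046487, plus strand), was the most abundant of the 8. It had 268, 266 and 303 TPM in Gata2cKO replicates 1, 2 and 3, against 139, 189 and 167 TPM in control replicates 1, 2 and 3. The groups did not overlap, and control replicate 1 was lowest. Upk3b rose 1.69-fold (log2 change 0.77 with an SE of 0.12, limma adjusted p = 0.0173). The call was lost without Gata2cKO replicate 1, 2 or 3, with limma adjusted p-values of 0.0660, 0.0524 and 0.0700.

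Msln encodes mesothelin, a lipid-anchored surface protein of mesothelial cells that binds the mucin Muc16 (chromosome 17, 25748613 to 25754378, minus strand). It had 45.6, 42.3 and 47.5 TPM in Gata2cKO replicates 1, 2 and 3, against 20.7, 38.7 and 31.8 TPM in control replicates 1, 2 and 3. The Gata2cKO libraries lay close together above the controls, which were spread widely. The difference did not pass (log2 fold change 0.60, 95% confidence interval 0.13 to 1.06, limma adjusted p = 0.109). Without control replicate 1 the log2 fold change was 0.35 (limma adjusted p = 0.0646).

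Wt1 encodes a zinc finger transcription factor of the coelomic epithelium that podocytes and urogenital mesenchyme also make (chromosome 2, 105126529 to 105173616, plus strand). It had 60.8, 56.3 and 56.6 TPM in Gata2cKO replicates 1, 2 and 3, against 56.00, 61.1 and 58.5 TPM in control replicates 1, 2 and 3. The groups overlapped, with means of 57.9 ± 2.51 TPM in Gata2cKO and 58.5 ± 2.57 TPM in control (SD, n = 3 each). Wt1 had a log2 change of -0.015, with a 95% confidence interval of -0.19 to 0.16 (limma adjusted p = 0.919). None of the 8 genes is overlapped by another annotated gene on either strand, and Wt1os lies 18 bases from Wt1 on the other strand.

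**Figure D2:**
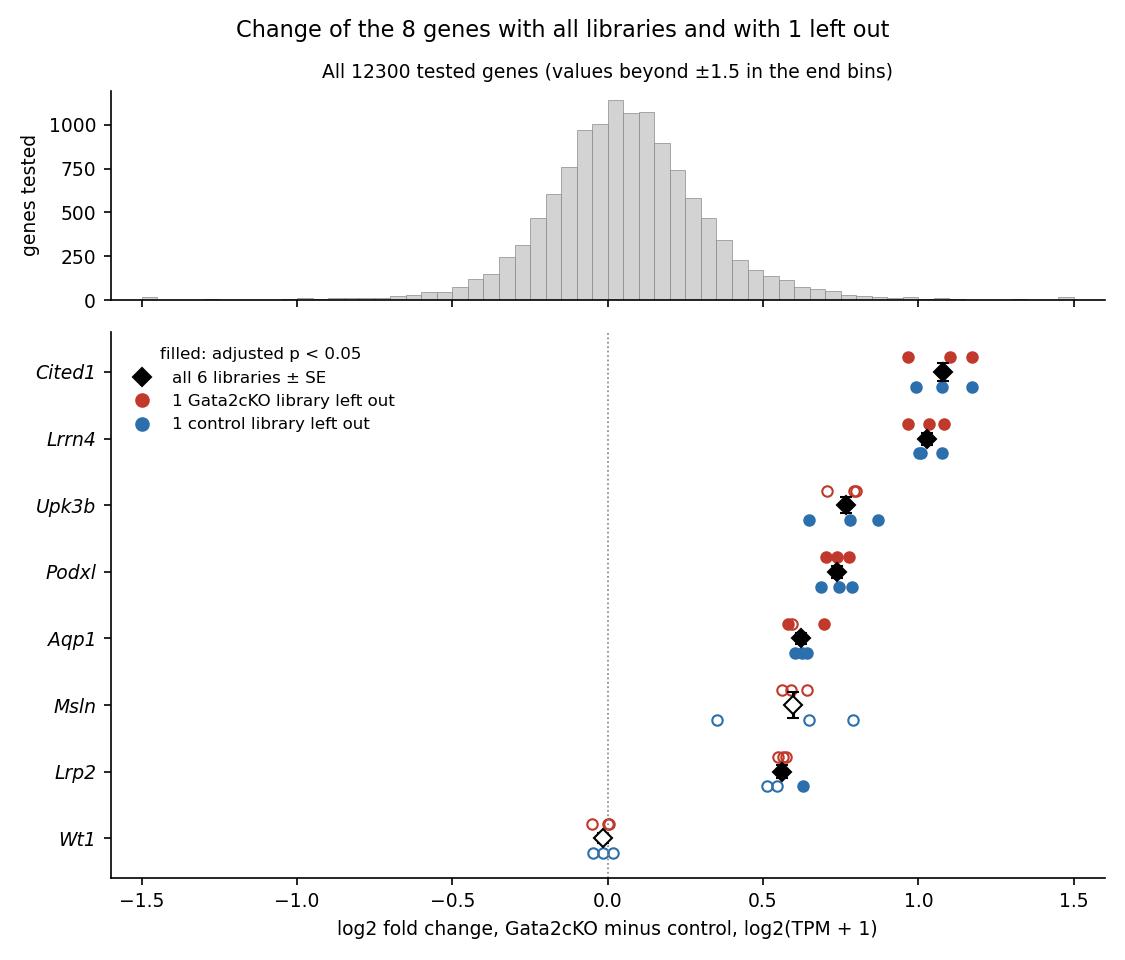
Log2 fold change of Gata2cKO over control (horizontal axis, from log2(TPM + 1) values) for all tested genes as a histogram and, below it, for each of the 8 genes with all libraries and with 1 library left out. Filled symbols have a limma adjusted p under 0.05, which Lrrn4, Cited1 and Podxl have in each fit and Wt1 and Msln in none.

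Ratios of 2 genes within a library do not depend on how the library was scaled. Lrrn4 per Wt1 was 0.716, 0.720 and 0.846 in Gata2cKO and 0.365, 0.368 and 0.345 in control. Podxl per Wt1 was 1.55, 1.51 and 1.58 in Gata2cKO and 0.880, 0.932 and 0.917 in control, so Podxl exceeded Wt1 in every Gata2cKO library and Wt1 exceeded Podxl in every control library. Upk3b per Wt1 averaged 4.83 ± 0.481 in Gata2cKO and 2.80 ± 0.305 in control, and Msln per Wt1 0.780 ± 0.0510 in Gata2cKO and 0.516 ± 0.134 in control (SD, n = 3 each). None of these 4 ratios overlapped between groups, and each had p = 0.1 in the two-sided exact permutation test, the smallest that 3 against 3 allows. Wt1 was nearly level and the 4 genes were already apart in TPM, so these ratios largely restate those separations. Lrrn4 per Upk3b was 0.163, 0.153 and 0.158 in Gata2cKO and 0.147, 0.119 and 0.121 in control, also without overlap (exact permutation p = 0.1), while Msln per Upk3b overlapped, at 0.162 ± 0.00714 in Gata2cKO and 0.182 ± 0.0291 in control (SD, n = 3 each; exact permutation p = 0.4).

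**Figure D3:**
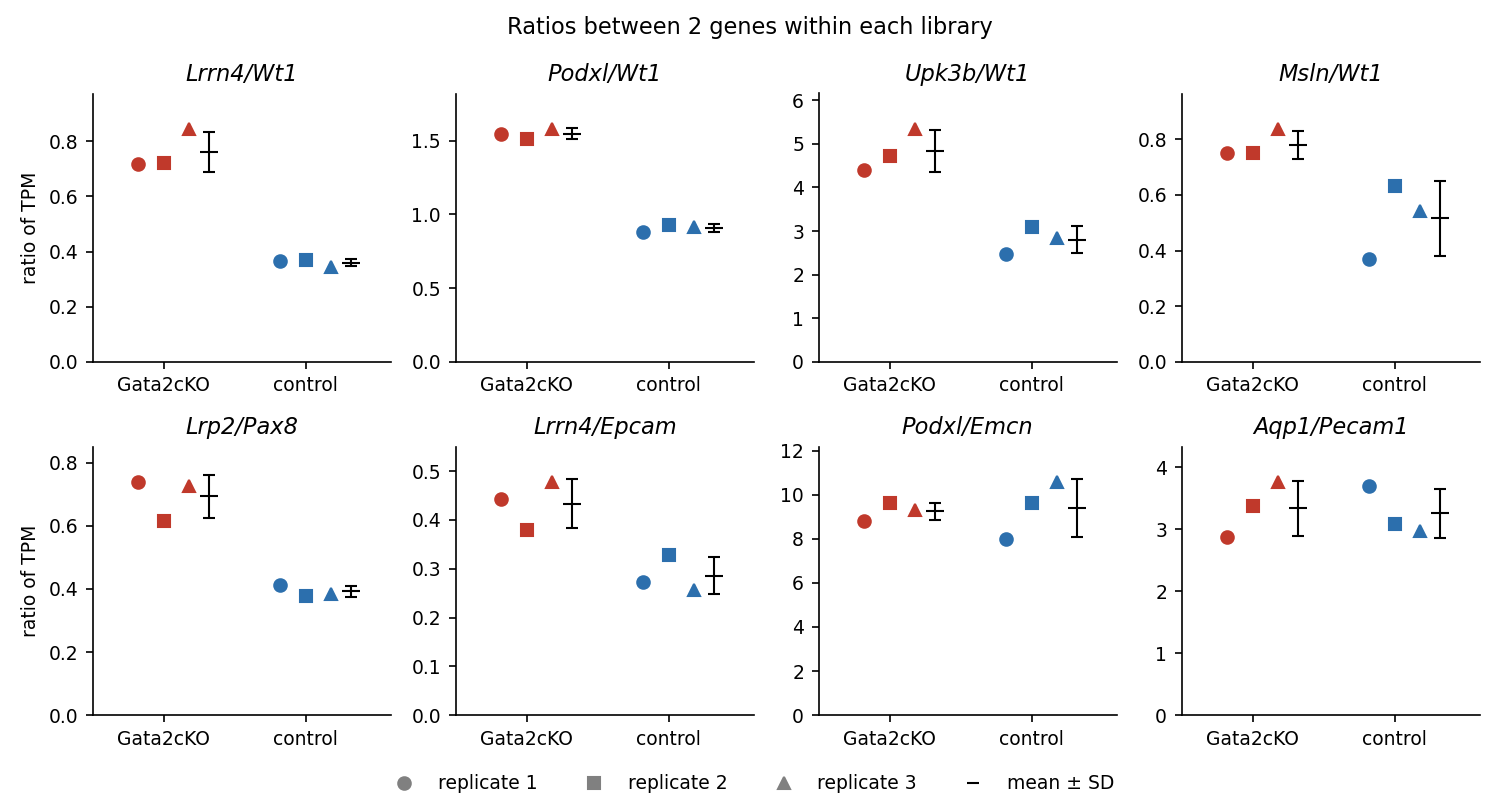
Ratio of the TPM of 2 genes within each library (vertical axis, starting at 0) in the 3 Gata2cKO and the 3 control libraries, with the mean and SD of each group. The ratios to Wt1 are apart between the groups, for Lrrn4 at 0.761 in Gata2cKO and 0.359 in control on average.

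Of 11 tested mesothelial markers, 5 rose and 0 fell, where 5.73% of all tested genes were called higher. The median log2 fold change was 0.48, or 0.47 over the 7 outside the 8 genes. Beside Lrrn4 and Upk3b the markers that rose were Upk1b, Cldn15 and Krt19. In 8 of the 11 every Gata2cKO value lay above every control value, as in 23.4% of all tested genes. Groups overlapped for Wt1, Bnc1 and Pdpn. Bnc1 and Pdpn had log2 fold changes of 0.22 and -0.11 (limma adjusted p = 0.223 and 0.503). Upk1b, a tetraspanin that pairs with uroplakins, was at 21.9 ± 1.68 TPM in Gata2cKO and 15.5 ± 0.765 TPM in control (limma adjusted p = 0.0253). The claudin gene Cldn15 was at 14.7 ± 1.65 TPM in Gata2cKO and 9.25 ± 1.41 TPM in control (limma adjusted p = 0.0328). The keratin gene Krt19, named after its values were seen, was at 166 ± 22.2 TPM in Gata2cKO and 113 ± 13.8 TPM in control (SD, n = 3 each; limma adjusted p = 0.0439). The count of mesothelial markers that rose was 5 without control replicate 1, 2 without Gata2cKO replicate 2 or control replicate 2 or 3 and 1 without Gata2cKO replicate 1 or 3. Summed over the list, the level was 627 to 722 TPM in Gata2cKO libraries and 395 to 504 TPM in control libraries, and 0 measured markers were at 0 throughout. Upk3b alone gave 266 to 303 TPM of this sum in Gata2cKO and 139 to 189 TPM in control. No sum was taken without the 8 genes, so its separation partly restates theirs. In bulk tissue a larger number of cells and more RNA per cell cannot be told apart.

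In the uroplakin family, 3 of 4 tested members rose, against 5.73% of all tested genes called higher, and 0 fell. Beside Upk3b and Upk1b this was Upk3bl, which lies 8004 bases from Upk3b on the same strand and had 2.22, 1.73 and 1.81 TPM in Gata2cKO, against 0.961, 1.27 and 1.08 TPM in control (limma adjusted p = 0.0393). The authors' deposited table gives Upk3bl an adjusted p of 0.265. Related sequences could share reads, so the low Upk3bl values are uncertain. The uroplakin count was 3 without control replicate 1, 1 without Gata2cKO replicate 2 or control replicate 2 or 3 and 0 without Gata2cKO replicate 1 or 3, and 2 with median-of-ratios scaling or without mitochondrially encoded genes in the total. In the Lrrn family, Lrrn4 was the gene that rose among 5 tested, and 0 fell. Lrrn4cl, named for its likeness to Lrrn4, had 22.2, 23.3 and 18.1 TPM in Gata2cKO, against 9.30, 13.3 and 17.3 TPM in control, above the controls but not past the test (limma adjusted p = 0.0845). Lrrn1 and Lrrn3 had log2 fold changes of -0.25 and -0.39 (limma adjusted p = 0.231 and 0.0720). Muc16, the partner of mesothelin, was at 5.07 ± 0.911 TPM in Gata2cKO and 3.68 ± 0.629 TPM in control (SD, n = 3 each; limma adjusted p = 0.146). Of 3 tested genes of mesothelin and its partners 0 passed in limma, with 2, Msln and Muc16, at an unadjusted p under 0.05. They ranked 2095 and 2791 of 12300 genes by p-value, so such values were common over all genes.

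Of 8 tested regulators of the coelomic epithelium, Wt1 included, 0 rose and 1 fell (median log2 fold change 0.12), against 1 and 2 without control replicate 1. The gene that fell was Tcf21, a transcription factor of urogenital mesenchyme and podocytes and the most abundant of that list, with 455, 432 and 461 TPM in Gata2cKO, against 722, 738 and 838 TPM in control (log2 change -0.76 with an SE of 0.089, limma adjusted p = 0.00856). Of 9 tested genes known as Wt1 targets, Podxl rose and 0 fell (median 0.13). Gas1, the most abundant of them, encodes a membrane protein of growth arrest and had 2319, 2611 and 2612 TPM in Gata2cKO, against 1682, 2172 and 2337 TPM in control (limma adjusted p = 0.210).

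Start regions of 3 genes that rose are shown because Gata2 and Wt1 proteins bind known letters: Upk3b, which holds a GATA match, Lrrn4, the mesothelial gene with the smallest p-value, and a start of Cited1 that holds a match to the letters of Egr and Wt1 proteins. They are RefSeq sequences of 300 bases around an annotated start (GRCm38.p6), matched for 5 of the 8 genes. Upk3b is chr5:136038246-136038545 (plus strand), Lrrn4 is chr2:132880813-132881112 (minus strand) and Cited1 is chrX:102250727-102251026 (minus strand). Capitals mark AGATAA or the same ending in G, likewise TGATAA, and GCGTGGGCG or the form GCGGGGGCG, on either strand.
Upk3b: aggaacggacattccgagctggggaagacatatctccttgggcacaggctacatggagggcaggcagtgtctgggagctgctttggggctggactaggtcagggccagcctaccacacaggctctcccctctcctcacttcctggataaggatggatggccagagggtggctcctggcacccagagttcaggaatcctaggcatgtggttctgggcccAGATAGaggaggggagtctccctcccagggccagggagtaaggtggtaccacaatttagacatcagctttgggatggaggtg
Lrrn4: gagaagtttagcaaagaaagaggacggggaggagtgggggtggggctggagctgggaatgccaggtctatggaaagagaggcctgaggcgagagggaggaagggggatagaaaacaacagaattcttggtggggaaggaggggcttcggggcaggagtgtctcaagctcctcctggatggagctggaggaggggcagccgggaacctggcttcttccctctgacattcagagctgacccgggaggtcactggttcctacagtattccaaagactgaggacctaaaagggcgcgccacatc
Cited1: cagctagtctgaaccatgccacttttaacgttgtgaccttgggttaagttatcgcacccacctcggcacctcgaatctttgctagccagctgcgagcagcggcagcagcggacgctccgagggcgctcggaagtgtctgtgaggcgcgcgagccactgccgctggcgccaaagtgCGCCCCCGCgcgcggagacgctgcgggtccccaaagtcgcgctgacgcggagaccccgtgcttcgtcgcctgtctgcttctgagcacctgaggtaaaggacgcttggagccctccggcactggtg

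The 7 start regions found belong to 5 of the 8 genes, with 3 from Cited1 and none from Podxl, Wt1 or Msln. The GATA letters were in 1 of the 7, at position -32 from the start of Upk3b, and in 29.8% of all 32851 start regions. The Egr and Wt1 letters were in 1 of 7, at position -75 from that start of Cited1, and in 3.47% of all. The searches do not overlap in letters, and a match describes sequence only.

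Podxl encodes podocalyxin, a charged sialomucin of podocytes that endothelium and mesothelium also make (chromosome 6, 31519488 to 31563981, minus strand). It had 94.2, 84.97 and 89.6 TPM in Gata2cKO replicates 1, 2 and 3, against 49.3, 56.96 and 53.7 TPM in control replicates 1, 2 and 3. The groups were far apart, and Podxl rose 1.68-fold (log2 change 0.74 with an SE of 0.085, limma adjusted p = 0.00849). It was called in all 6 fits that left out 1 library. Of 8 tested genes of its family and cytoskeletal partners, Podxl was the gene that rose and 0 fell, and 2 rose with a filter of 5 TPM, without globin genes in the total or without control replicate 1. Ezr, which encodes the actin linker ezrin, had 30.6, 34.4 and 30.9 TPM in Gata2cKO, against 22.4, 24.4 and 26.5 TPM in control (limma adjusted p = 0.0519). Slc9a3r2, a scaffold gene and the most abundant of them, was at 87.5 ± 6.27 TPM in Gata2cKO and 87.03 ± 13.4 TPM in control (SD, n = 3 each; limma adjusted p = 0.947).

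Aqp1 encodes the water channel of proximal tubules and efferent ducts, which capillaries and red cells also carry (chromosome 6, 55336432 to 55348555, plus strand). It had 26.2, 30.9 and 30.4 TPM in Gata2cKO replicates 1, 2 and 3, against 18.04, 18.6 and 19.02 TPM in control replicates 1, 2 and 3. The controls lay close together, below every Gata2cKO library. Aqp1 rose 1.57-fold (log2 change 0.62 with an SE of 0.088, limma adjusted p = 0.0122), and the call was lost without Gata2cKO replicate 3 (limma adjusted p = 0.0532). Of 3 tested aquaporins Aqp1 was the gene that rose, and 0 fell.

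Lrp2 encodes megalin, the endocytic receptor with which tubule cells take up protein (chromosome 2, 69424340 to 69586065, minus strand). It was the least abundant of the 8, with 2.58, 2.71 and 2.63 TPM in Gata2cKO replicates 1, 2 and 3, against 1.70, 1.30 and 1.41 TPM in control replicates 1, 2 and 3. The groups did not overlap, and Lrp2 rose 1.79-fold by mean TPM (log2 change 0.56 with an SE of 0.094, limma adjusted p = 0.0184). On the log2 scale with a pseudocount of 0.1 the change was 0.81 (limma adjusted p = 0.0209). The call was lost in 5 of 6 fits that left out 1 library, at limma adjusted p-values of 0.0679 without control replicate 2, 0.0598 without control replicate 3, and 0.0798, 0.0597 and 0.0708 without Gata2cKO replicates 1, 2 and 3. Of 10 tested genes of megalin and its partners, Lrp2 was the gene that rose in limma and 0 fell. Vldlr was lower without overlap and did not pass (limma adjusted p = 0.106), while the authors' deposited table gives it an adjusted p of 0.00314. Lrp1, a related receptor gene and the most abundant of them, had 75.8, 98.1 and 80.2 TPM in Gata2cKO, against 95.5, 82.2 and 92.9 TPM in control, and the groups overlapped (limma adjusted p = 0.633). Cubn, the receptor that works with megalin, was at or under 0.0603 TPM in every library.

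Cited1 encodes a transcriptional coregulator known from progenitors of kidney tubules (chromosome X, 102247381 to 102252181, minus strand). It had 16.7, 20.4 and 15.1 TPM in Gata2cKO replicates 1, 2 and 3, against 7.57, 6.63 and 8.83 TPM in control replicates 1, 2 and 3. The groups were far apart, and Cited1 rose 2.26-fold (log2 change 1.08 with an SE of 0.14, limma adjusted p = 0.0107). It was called in all 6 fits that left out 1 library. Of 9 tested genes of its family and partners, 2 rose and 0 fell. The other was Tfap2c, an AP-2 factor of the kind Cited proteins assist, with 5.08, 4.67 and 3.07 TPM in Gata2cKO, against 1.53, 1.07 and 1.01 TPM in control (log2 change 1.24 with an SE of 0.17, limma adjusted p = 0.0116). Cited2, the most abundant of them, had 206, 234 and 248 TPM in Gata2cKO, against 124, 226 and 243 TPM in control, and the groups overlapped (limma adjusted p = 0.501).

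Defining markers of tubule cell types did not all accompany Podxl, Cited1, Aqp1 and Lrp2, which are therefore called by their gene names. Of 8 tested podocyte markers Podxl rose and Tcf21 fell (median log2 fold change -0.041, or -0.14 without the members among the 8 genes), and Magi2 and Ptpro, which podocytes need, were at or under 0.0934 and 0.652 TPM. Of 8 tested nephron progenitor markers Cited1 rose and 0 fell (median 0.029, or 0.0072 without the 8 genes). Levels in this list differed widely. Osr1, the most abundant, had 76.4, 89.4 and 76.4 TPM in Gata2cKO, against 33.2, 83.96 and 87.2 TPM in control. Wt1 was next, Sall1 and Meox1 were at or under 5.24 and 4.37 TPM, and Eya1 was at or under 0.283 TPM. Nphs1 and Six2 were not analysed here. Of 8 tested proximal tubule markers 3 rose, against 5.73% of all tested genes called higher, and 0 fell (median 0.43, or 0.21 without the 8 genes). The 3 were Lrp2, Aqp1 and Gatm, a gene of creatine synthesis. Gatm was at 5.87 ± 0.736 TPM in Gata2cKO and 3.29 ± 0.368 TPM in control (SD, n = 3 each; limma adjusted p = 0.0178). The number that rose was 3 without control replicate 1, 2 without control replicate 2, 1 without Gata2cKO replicate 1 or 2 or control replicate 3 and 0 without Gata2cKO replicate 3. Of 7 tested markers of mesonephric tubules and efferent ducts Lrp2 and Aqp1 rose and 0 fell (median 0.027, or -0.018 without the 8 genes). Their count was 2 without control replicate 1, 1 without Gata2cKO replicate 1 or 2 or control replicate 2 or 3 and 0 without Gata2cKO replicate 3, and 1 fell without Gata2cKO replicate 2. Pax8, a transcription factor of tubules and ducts, was at 3.84 ± 0.502 TPM in Gata2cKO and 3.74 ± 0.350 TPM in control, and Lrp2 per Pax8 was 0.740, 0.615 and 0.727 in Gata2cKO and 0.413, 0.379 and 0.385 in control without overlap (SD, n = 3 each; exact permutation p = 0.1).

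**Figure D4:**
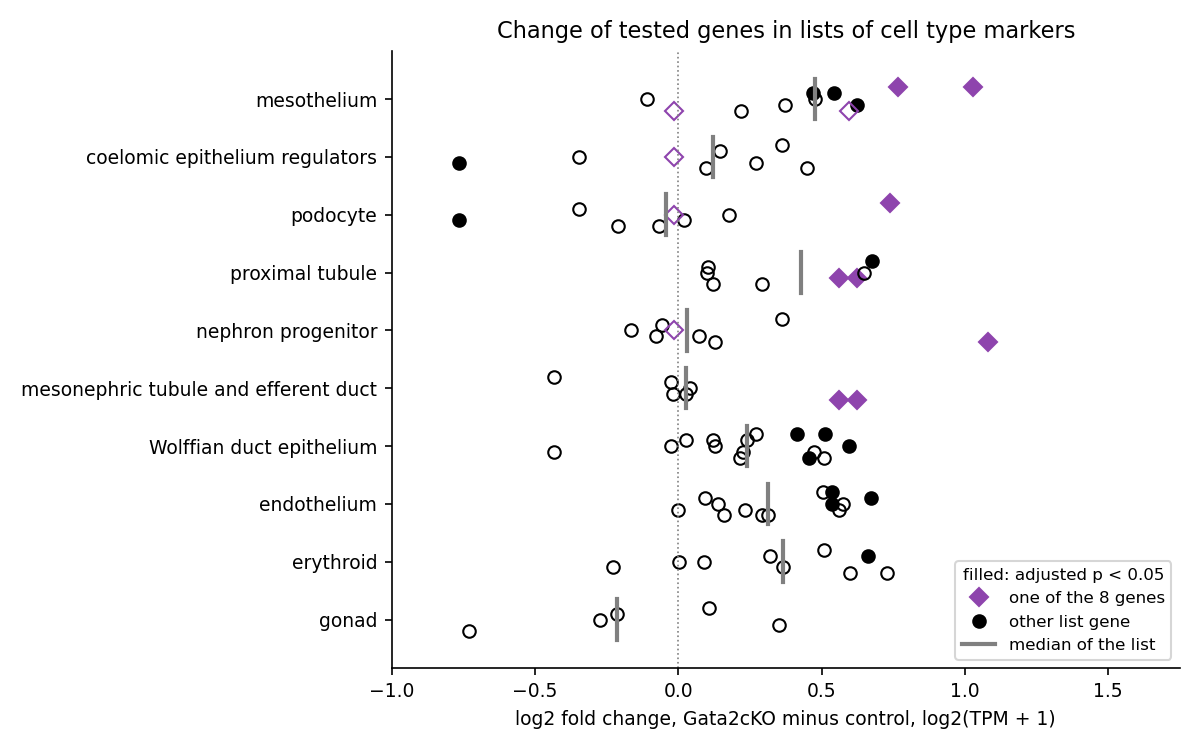
Log2 fold change of Gata2cKO over control (horizontal axis, from log2(TPM + 1) values) of each tested gene in lists of cell type markers, filled where the limma adjusted p is under 0.05. The median is -0.041 for podocyte, 0.029 for nephron progenitor and 0.48 for mesothelial markers.

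Endothelium also makes Podxl and Aqp1. Of 13 tested endothelial markers 3 rose and 0 fell (median log2 fold change 0.31), where 5.73% of all tested genes were called higher. In 8 of the 13 every Gata2cKO value lay above every control value, as in 23.4% of all tested genes. Overlap was seen for Cldn5, Egfl7, Flt1, Kdr and Plvap, with Kdr at a log2 fold change of -0.00029. Summed over the list, the level was 573 to 695 TPM in Gata2cKO libraries and 411 to 549 TPM in control libraries. Sox18 and Cldn5, neither called, averaged 205 and 155 TPM in Gata2cKO and 165 and 105 TPM in control. The adhesion genes Esam and Pecam1 and the sialomucin gene Emcn rose, with log2 fold changes of 0.53, 0.54 and 0.67 (limma adjusted p = 0.0112, 0.0328 and 0.0156). The endothelial count was 4 without control replicate 1, 2 without Gata2cKO replicate 2 or control replicate 2 or 3, 1 without Gata2cKO replicate 3 and 0 without Gata2cKO replicate 1, and 6 with the replicate number as a block. Sox18, the most abundant, had 188, 209 and 217 TPM in Gata2cKO, against 141, 181 and 175 TPM in control (limma adjusted p = 0.132). Podxl per Emcn was 8.83, 9.62 and 9.29 in Gata2cKO and 7.97, 9.63 and 10.6 in control, and Aqp1 per Pecam1 was 2.88, 3.38 and 3.77 in Gata2cKO and 3.71, 3.08 and 2.98 in control, so both overlapped between the groups. Per Cdh5, the vascular cadherin gene, Podxl was 3.11 ± 0.438 in Gata2cKO and 2.27 ± 0.135 in control and Aqp1 1.01 ± 0.0956 in Gata2cKO and 0.790 ± 0.00497 in control, both without overlap (SD, n = 3 each; exact permutation p = 0.1). The part of endothelium in these differences was not tested.

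Red cells also carry Aqp1. Of 9 tested erythroid markers the anion exchanger gene Slc4a1 rose (limma adjusted p = 0.0438) and 0 fell. The erythroid count was 5 without control replicate 1 and 0 without Gata2cKO replicate 1, 2 or 3 or control replicate 2 or 3, and 0 with median-of-ratios scaling, without mitochondrially encoded genes in the total, with a pseudocount of 0.1, with no filter or with a filter of 5 TPM. Their summed level was 10534 to 13839 TPM in Gata2cKO libraries and 6872 to 18287 TPM in control libraries, and Hba-a1, the most abundant, could share reads with a near-identical copy. Aqp1 per Alas2, a heme synthesis gene, overlapped at 2.90 ± 0.473 in Gata2cKO and 3.11 ± 1.17 in control (SD, n = 3 each).

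Of 15 tested markers of Wolffian duct epithelium, Cldn4, Epcam, Krt7 and Wnt9b rose and 0 fell (median log2 fold change 0.24). Of all tested genes 5.73% were called higher. Summed over the list, the level was 1469 to 1538 TPM in Gata2cKO libraries and 1125 to 1311 TPM in control libraries. The number that rose was 8 without control replicate 1, 3 without control replicate 3, 1 without Gata2cKO replicate 2 or 3 or control replicate 2 and 0 without Gata2cKO replicate 1, and 2 with the replicate number as a block. Without Gata2cKO replicate 2, 1 fell. Krt18, a keratin gene and the most abundant, had 358, 351 and 337 TPM in Gata2cKO, against 328, 298 and 337 TPM in control (limma adjusted p = 0.378). Per Epcam, an epithelial adhesion gene at 102 ± 4.40 TPM in Gata2cKO and 74.1 ± 5.20 TPM in control, Lrrn4 was 0.442, 0.380 and 0.478 in Gata2cKO and 0.273, 0.328 and 0.256 in control and Cited1 0.170 ± 0.0202 in Gata2cKO and 0.103 ± 0.00782 in control, both without overlap (SD, n = 3 each; exact permutation p = 0.1). Upk3b per Epcam was 2.72, 2.49 and 3.03 in Gata2cKO and 1.85, 2.75 and 2.11 in control, and it overlapped, as did Podxl per Epcam. Lrp2 per Epcam was 0.0261, 0.0254 and 0.0263 in Gata2cKO and 0.0227, 0.0190 and 0.0179 in control, without overlap (exact permutation p = 0.1). The part of duct epithelium was not tested. Gonadal cells also make Wt1. Of 5 tested gonadal markers 0 passed in limma, with 1, Inha, at an unadjusted p under 0.05 (rank 2696 of 12300 genes by p-value). Their summed level was 82.6 to 98.8 TPM in Gata2cKO libraries and 101 to 112 TPM in control libraries, and the most abundant, Inha, had 50.8, 57.3 and 47.6 TPM in Gata2cKO, against 56.3, 65.2 and 67.6 TPM in control (limma adjusted p = 0.142).

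In order of mean TPM, Gata2cKO libraries had Upk3b (279), Podxl (89.6), Wt1 (57.9), Msln (45.1), Lrrn4 (44.01), Aqp1 (29.2), Cited1 (17.4) and Lrp2 (2.64). Control libraries had the same order except that Wt1 (58.5) stood before Podxl (53.3). Msln and Lrrn4 overlapped in both groups, and Wt1 and Podxl overlapped in the controls.

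The authors' deposited table holds the same genes, all 6, past an adjusted p of 0.05, with 1.36e-12 for Lrrn4, 6.25e-10 for Podxl, 1.82e-07 for Lrp2, 2.32e-06 for Upk3b, 0.000108 for Cited1 and 0.000129 for Aqp1. Of all genes, 6.69% were called higher and 6.58% lower in the authors' deposited table, where Msln had an adjusted p of 0.0664 and Wt1 of 0.649. Counts of list genes that rose or fell are from limma. Among list genes not called in limma, the authors called Vldlr, Lrrn3, Crebbp and Plce1 lower (adjusted p = 0.00314, 0.0176, 0.00576 and 0.000417). They also called Tie1, Sox17 and Gpm6a higher (adjusted p = 0.00532, 0.0404 and 0.0211). Not every such gene is given here.

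The genes most like Upk3b over the 6 libraries, by the root mean square difference of centred log2(TPM + 1) values, were Rassf10 (0.0501), Plau (0.0699) and Angptl4 (0.0715). Rassf10 had 41.3, 43.6 and 46.6 TPM in Gata2cKO, against 20.99, 29.1 and 27.7 TPM in control. Those most like Podxl were Lsr (0.0253), Col5a2 (0.0437) and Pnp (0.0465). Lsr, a gene of epithelial tricellular junctions, had 8.76, 8.24 and 8.24 TPM in Gata2cKO, against 4.21, 5.07 and 4.75 TPM in control. Among the 8 genes the closest pair was Upk3b and Podxl (0.0995) and the least alike Cited1 and Wt1 (0.578).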

How the data were processed

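RNA-seq of 6 mesonephros samples was read from 1 gene table, with columns matched to samples by library name. The submitters' processing notes name STAR 2.7.11a, DESeq2 and DESeq, and the GRCm38 build, without saying what each was used for. No source used here names the quantifier, the gene filter or whether the kit marked strand. The deposited values were taken as TPM made by the authors because libraries sum to 997351 to 998844. The authors' deposited log2 fold changes and p-values were used only where named.

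Genes reaching 1 TPM in 3 or more of 6 libraries were kept (12300). limma 3.58.1 (R 4.3.3), with a variance trend, was fitted to log2(TPM + 1) with a group term. Adjustment was Benjamini-Hochberg over all 12300 genes, two-sided, at 0.05, and every adjusted p is from limma unless the authors' table is named. Log2 fold changes are Gata2cKO minus control and understate changes of low genes.

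The 8 genes and 18 lists of markers, families and partners were chosen with earlier results of these data known. Up to 4 called members of a list with the smallest adjusted p and its most abundant member were named. The 3 genes most like each of Upk3b and Podxl were also named. Some further family members and defining markers are given by level or log2 fold change. Alternatives were other pseudocounts, filters and scalings, no variance trend, a replicate block and removal of each library. Gene positions are from GENCODE M21 (GRCm38).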

Additional observations from a re-analysis of the deposited data

How the results depend on the processing

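Podxl, Cited1 and Lrrn4 were called under all 15 alternatives and Msln under 0 of them. Aqp1, Lrp2 and Upk3b kept their direction wherever tested. Lrp2 had no value under the filter of 5 TPM, where 5 of the 8 genes were called. With 1 library left out, log2 fold changes ranged 0.69 to 0.79 for Podxl, 0.97 to 1.17 for Cited1, 0.58 to 0.70 for Aqp1, 0.51 to 0.63 for Lrp2, 0.65 to 0.87 for Upk3b, 0.97 to 1.08 for Lrrn4, -0.050 to 0.016 for Wt1 and 0.35 to 0.79 for Msln, and 3 to 6 of the 8 genes rose. Over all genes these removals gave 116 to 1539 calls, 87 to 1108 higher and 29 to 431 lower, with the most without control replicate 1 and the fewest without Gata2cKO replicate 1. Median-of-ratios scaling gave 397 lower genes, and leaving mitochondrially encoded genes out of the total gave 436 higher genes. Some genes that were not called also took the opposite sign in some removals, with ranges of -0.14 to 0.11 for Gata2, -0.056 to 0.084 for Pax8, -0.10 to 0.27 for Upk1a, -0.034 to 0.45 for Cited2, -0.17 to 0.49 for Hba-a1, -0.087 to 0.60 for Osr1 and -0.11 to 0.11 for Slc9a3r2. Osr1 and Cited2 did so only without control replicate 1. With median-of-ratios scaling Pax8 was at -0.021 and Slc9a3r2 at -0.042, and without mitochondrially encoded genes in the total at -0.023 and -0.043. The cause was not tested. Replicate numbers are shared between groups without a stated pairing. Deviations of same-numbered samples correlated across genes, which are not independent, by 0.25, -0.07 and 0.04, and Gata2cKO replicates 2 and 3 were closest to control replicates 3 and 2, so the numbers were not taken as pairs. With the replicate block 584 genes were higher, 190 lower, and 6 of the 8 were called, and the counts of endothelial and Wolffian duct markers that rose were 6 and 2, against 3 and 4 without the block. TPM gives no depth, which limits what low values such as those of Lrp2 and Upk3bl can show.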

Other observations

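Control replicate 1 was low for Msln, Upk3b and Lrrn4cl among others, and also for 2 genes picked out after their values were seen. It held the most globin transcripts of the 6 libraries, at 18277 TPM, against 6868 and 7818 TPM in the other controls. Osr1, a transcription factor of intermediate mesoderm, had 76.4, 89.4 and 76.4 TPM in Gata2cKO replicates 1, 2 and 3, against 33.2, 83.96 and 87.2 TPM in control replicates 1, 2 and 3 (limma adjusted p = 0.526). Cited2, the most abundant gene of the Cited family, shared this low value in control replicate 1, at 124 TPM. Wt1 did not, with 56.00 TPM in control replicate 1 and 61.1 and 58.5 TPM in the other controls.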
